A study of Bos taurus with 6 samples.

Results

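The primitive endoderm, called hypoblast in cattle, is an epithelial lineage that arises from the inner cell mass of the blastocyst. The genes described here are regulators of that lineage: the transcription factors GATA6, GATA4, SOX17 and HNF4A and the receptor PDGFRA. They were chosen by symbol from the deposited count table, and 4 of the 5 listed symbols are among its 12826 genes. SOX17, an HMG-box factor of early endoderm, was not analysed here. Each of the 4 was tested. The smallest total of any gene of the table over the libraries was 38 counts.

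The data are 6 RNA-seq libraries of Bos taurus blastocysts at day 7, produced in vitro from slaughterhouse material, with several embryos pooled for each. Beta-hydroxybutyrate (BHB), a ketone body, was the treatment of 3 pools, and 3 control pools (labelled CTRL) did without it. Dose, exposure time and pool size: not given in the sources used here. Both groups are whole blastocysts, so trophectoderm, epiblast and hypoblast cells contribute to each value, and fewer cells of a type and less RNA per cell cannot be told apart. Libraries are numbered 1 to 3 within each group in the order of deposit. No source says whether pools were independent batches, so p-values reflect the spread among these libraries, which may be technical.

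Hypoblast cells arise next to epiblast cells inside the inner cell mass. FGF signalling moves cells from the epiblast factor NANOG towards GATA6, and the later factors SOX17 and GATA4 and the receptor PDGFRA then follow in hypoblast cells. The finished hypoblast is an epithelium that lines the blastocoel, secretes basement membrane, takes up proteins by endocytosis and later forms the yolk sac, where HNF4A drives genes for plasma-type proteins and lipoproteins. GATA6 is not exclusive to that lineage, since it is expressed broadly in early embryos before it is restricted.

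Totals ran from 6440732 to 8176648 counts per library. Levels are CPM, counts scaled to a fixed library total with edgeR's TMM factors. Fold changes are log2 of BHB over control with their standard error (SE), from edgeR's quasi-likelihood test over 12732 genes with Benjamini-Hochberg adjustment, where 0% of genes had an adjusted p under 0.05 (0 genes, with 347 or 2.73% at an unadjusted p under 0.05). DESeq2's Wald test called 6 genes and limma-voom 0. The libraries also fall into 3 pairs of a control and a BHB library with the same number. That pairing is not in the labels and comes from the model behind the authors' deposited table, as described with the processing. What a pair stands for was not given in the sources used here, and differences within pairs are printed beside the group values. Transcript lengths were not used here, so levels are compared between libraries for 1 gene and not between genes.

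No regulator passed the test between BHB and control, and the 4 did not move in 1 direction. Within pairs, edgeR with the pair as a block called 0% of genes at an adjusted p under 0.05 and had 8.2% at an unadjusted p under 0.05, with no regulator among them. DESeq2 within pairs called 0.339% of the genes it adjusted, again with no regulator. GATA4 had the largest difference, at a level of a few CPM, with all BHB libraries below all controls. A full separation of this kind, in either direction, was seen for 7.84% of the 12732 genes tested. The closest GATA4 libraries were control 2 with 15 counts (1.99 CPM) and BHB 2 with 13 counts (1.80 CPM). HNF4A was lower in BHB within each pair, with a smaller blocked estimate than GATA4. GATA6 was higher within each pair, with a smaller estimate still, and PDGFRA went both ways. PDGFRA and HNF4A passed a test between the pairs of libraries, added after the data were seen, as did 4.12% of all tested genes. Without pair 1 neither passed.

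GATA6 is the zinc finger factor that opens the hypoblast programme. It was at 95.5, 92.4 and 117 CPM in control libraries 1 to 3 and at 100.1, 102 and 132 CPM in BHB libraries 1 to 3. The groups overlapped, and the highest library of each group was number 3. The group means were 101.7 ± 13.4 CPM (SD, n = 3) and 111.5 ± 17.9 CPM (SD, n = 3). The log2 fold change was 0.13 (SE 0.16, edgeR adjusted p = 0.999), with a 95% interval from -0.23 to 0.50. Within pairs 1, 2 and 3 the BHB library was higher by 0.07, 0.15 and 0.17 on the log2 CPM scale, and the blocked edgeR estimate was 0.13 with an interval from -0.12 to 0.38 (adjusted p = 0.802). BHB was higher in all 3 pairs in 14.5% of tested genes and lower in all 3 pairs in 15.7%, together 30.3%. Over the 6 libraries the highest GATA6 level was 1.43 times the lowest, the narrowest range of the 4 regulators. GATA6 rested on 697 to 997 counts per library.

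GATA4, a paralog of GATA6 that marks more mature hypoblast, was counted sparsely. It had 18, 15 and 27 counts in the controls and 8, 13 and 6 counts in the BHB libraries, which is 2.40, 1.99 and 3.17 CPM against 1.08, 1.80 and 0.88 CPM. The lowest control, library 2, lay just above the highest BHB library, also library 2, and the groups did not overlap, as in 7.84% of tested genes. The means were 2.52 ± 0.60 CPM (SD, n = 3) in control and 1.25 ± 0.49 CPM (SD, n = 3) in BHB libraries, with a log2 fold change of -1.002 (SE 0.47). Its 95% interval ran from -2.06 to 0.05, its unadjusted edgeR p was 0.06 and its adjusted p was 0.999. Within pairs 1, 2 and 3 the difference was -0.99, -0.13 and -1.59 on the log2 CPM scale, so pair 2 held little of it. The blocked edgeR estimate was -1.01 (SE 0.51, adjusted p = 0.669). With 1 library left out, or 1 pair left out in the blocked fit, the estimate ran from -1.485 (without pair 2) to -0.613 (without pair 3). The 60 control counts have an exact 95% Poisson interval of 45.8 to 77.2 and the 27 BHB counts one of 17.8 to 39.3. Those intervals cover counting error only, and for single libraries they overlap: the 15 counts of control 2 have an interval of 8.4 to 24.7, and the 13 counts of BHB 2 one of 6.92 to 22.2. With a filter of at least 2 CPM in 3 libraries, chosen after the data were seen, GATA4 was not tested.

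HNF4A is a nuclear receptor of visceral endoderm, liver and gut epithelium that activates apolipoprotein and clotting factor genes. It was at 11.4, 29.3 and 17.5 CPM in control libraries 1 to 3 and at 9.83, 21.5 and 15.0 CPM in BHB libraries 1 to 3. The order of the numbers was the same in both groups, with library 1 lowest and library 2 highest, and the groups overlapped widely. The means were 19.4 ± 9.12 CPM (SD, n = 3) and 15.4 ± 5.83 CPM (SD, n = 3), with a log2 fold change of -0.33 (SE 0.38, edgeR adjusted p = 0.999; interval -1.18 to 0.52). Within pairs 1, 2 and 3 the BHB library was lower, by -0.20, -0.44 and -0.22, and the blocked estimate was -0.30 with an interval from -0.71 to 0.11 (edgeR adjusted p = 0.72). Without control library 2 the unpaired log2 fold change was 0.10. That fit kept BHB library 2, the highest of its group, without the control of its pair. HNF4A had 73 to 221 counts per library.

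PDGFRA, the receptor for the ligand PDGFA, is a surface marker of hypoblast cells and supports their survival. It was at 40.7, 98.9 and 93.3 CPM in the controls and at 57.7, 106 and 82.1 CPM in the BHB libraries. Library 1 was the lowest of its group in both groups, and the other 4 libraries lay together. The means were 77.7 ± 32.1 CPM (SD, n = 3) in control and 82.0 ± 24.2 CPM (SD, n = 3) in BHB libraries. The log2 fold change was 0.08 (SE 0.33, edgeR adjusted p = 0.999), with an interval from -0.66 to 0.82. Within pairs 1 and 2 the BHB library was higher by 0.50 and 0.10 and within pair 3 it was lower, at -0.18. The blocked interval was narrower, from -0.19 to 0.45. Without control library 1 the unpaired value was -0.23, and without BHB library 2 it was -0.15. PDGFRA had 305 to 795 counts per library.

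**Figure D1:**
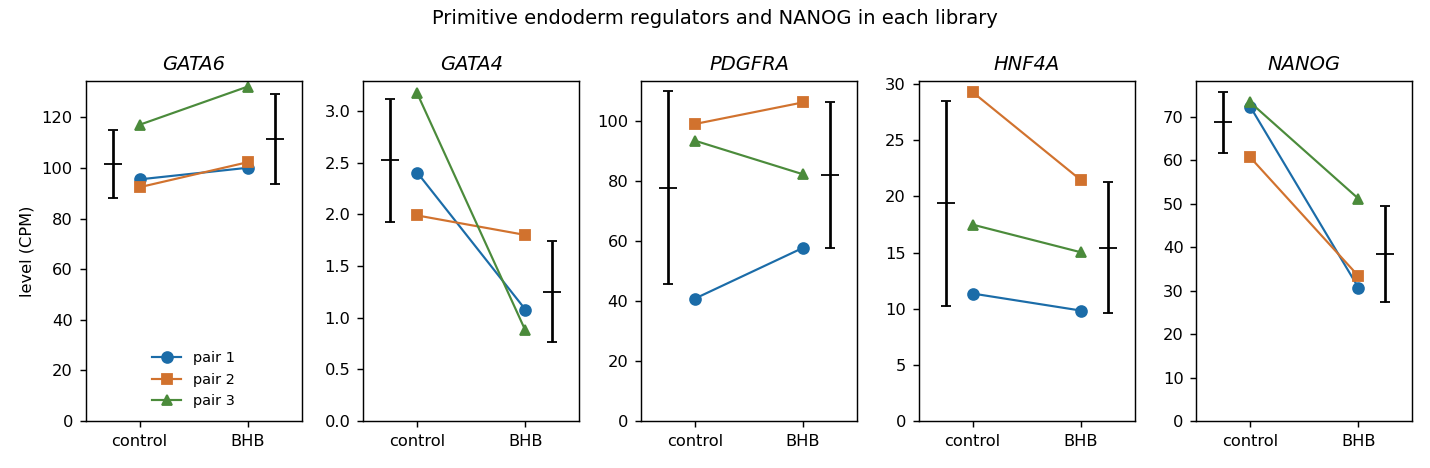
Levels of the 4 regulators and of NANOG in CPM (vertical axes, each from 0) in control and BHB libraries, with lines joining the libraries of a pair and black bars giving mean ± SD of 3 libraries. GATA4 is at 1.99 to 3.17 CPM in control and 0.88 to 1.80 CPM in BHB libraries without overlap, as in 7.84% of tested genes, while PDGFRA and HNF4A separate by pair, with pair 1 lowest.

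**Figure D2:**
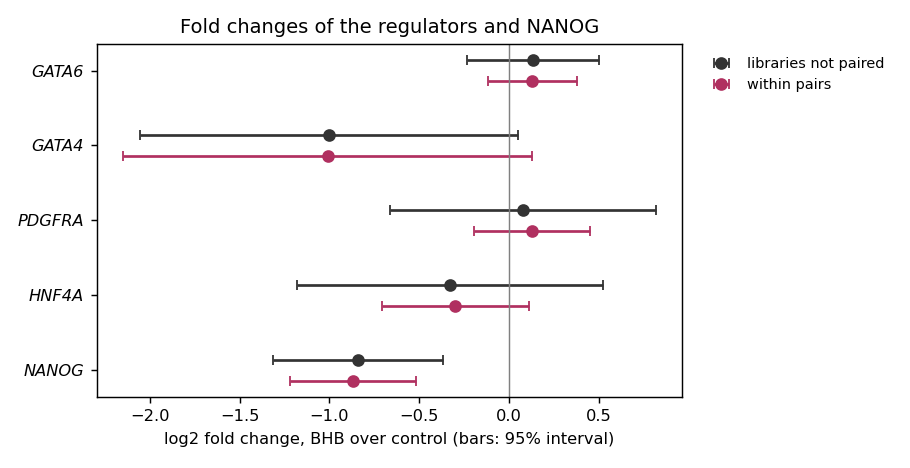
Log2 fold changes of BHB over control with 95% intervals (horizontal axis) for the 4 regulators and NANOG, from edgeR fits without pairing and within pairs. The intervals of all 4 regulators include 0 in both fits, those of PDGFRA and HNF4A are narrower within pairs, and that of NANOG, not adjusted for the number of genes, lies below 0.

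NANOG, the epiblast factor that opposes GATA6 in the inner cell mass, gives the other side of this choice. It is the epiblast gene that DESeq2 called as lower with BHB within pairs (log2 fold change -0.87, adjusted p = 0.00887), while edgeR within pairs gave adjusted p = 0.183. The log2 level of GATA6 minus that of NANOG was 0.40, 0.60 and 0.67 in controls 1 to 3, against 1.70, 1.61 and 1.36 in the BHB libraries of the same numbers. All BHB libraries lay above all controls, with a mean of 0.56 ± 0.14 (SD, n = 3) in control and 1.56 ± 0.17 (SD, n = 3) in BHB libraries. This is a ratio of CPM in bulk RNA, and genes of different length are not compared in level by it. The difference was 1.00 (log2; exact two-sided permutation p = 0.1, the smallest that 3 against 3 allows). Within pairs 1, 2 and 3 it was 1.30, 1.01 and 0.69 (exact sign-flip p = 0.25, the smallest that 3 pairs allow). GATA6 contributed 0.07, 0.15 and 0.17 of those within-pair differences and the rest came from NANOG, whose own difference was already known from these data when the ratio was chosen. Of the 11 tested epiblast markers 6 had a positive fold change (median 0.11), so NANOG does not give the direction of that list.

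Between pairs, 2 of the 4 regulators passed edgeR's test with treatment in the model, where 4.12% of all tested genes passed (524 genes). PDGFRA differed with adjusted p = 0.0225 and HNF4A with adjusted p = 0.0332. PDGFRA averaged 49.2 CPM in pair 1, 102.5 CPM in pair 2 and 87.7 CPM in pair 3, so pair 2 lay 1.08 and pair 3 lay 0.85 above pair 1 on the log2 scale. HNF4A averaged 10.6, 25.4 and 16.3 CPM in pairs 1 to 3, and pair 2 lay 1.23 above pair 1. GATA6 averaged 97.8, 97.4 and 124.6 CPM and did not pass (adjusted p = 0.211), nor did GATA4 (adjusted p = 0.964). Without pair 1 neither call held: edgeR's adjusted p between the remaining pairs was 0.489 for PDGFRA and 0.23 for HNF4A, and 63 genes were called. Without pair 2 PDGFRA passed with adjusted p = 0.0158 and HNF4A did not (adjusted p = 0.253), and without pair 3 both passed (adjusted p = 0.00404 and 0.0135). The test between pairs was added after the data were seen.

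The authors' deposited table gives PDGFRA an adjusted p of 0.00059, HNF4A one of 0.027, GATA6 one of 0.48 and GATA4 one of 1. An adjusted p under 0.05 stands beside 5.04% of genes in the authors' deposited table. Its p-values were matched by a test of pair and treatment jointly against a model with neither. A small p in the authors' deposited table therefore does not separate treatment from pair. For PDGFRA the log2 fold change in the authors' deposited table, turned to BHB over control, is 0.13 with an error of 0.18, and for HNF4A it is -0.30 with an error of 0.28.

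The other genes of the hypoblast programme were read from 7 lists of transcription factors, GATA and SOX paralogs, PDGF and FGF signalling, basement membrane, endocytosis and secreted products. Of 97 listed genes other than the regulators, 59 are in the table and were tested. By edgeR none of them passed between the treatments, and 29 had a positive and 30 a negative fold change (median log2 fold change -0.01, against 0.00 over all tested genes to 2 decimals). The groups did not overlap in 4 of the 59 (6.78%, against 7.84% of all tested genes). In 7 the BHB library was higher in all 3 pairs and in 10 it was lower in all 3 pairs, together 28.8% against 30.3% of all tested genes. Those shares are near the background. An unadjusted edgeR p under 0.05 was found for 3 of the 59 without pairing (5.08%, against 2.73% of all tested genes) and for 10 within pairs (16.9%, against 8.2%), where again none passed after adjustment. Both of these shares are above the background, and that difference was not tested. The lists were chosen with earlier results of these data known, so the shares are a description only.

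Among hypoblast transcription factors 9 were tested, the regulators included, and 6 had a positive fold change (median 0.06). HHEX, a homeobox factor of anterior visceral endoderm, averaged 1.51 ± 0.43 CPM in the controls and 1.99 ± 0.41 CPM in the BHB pools (log2 fold change 0.39, SE 0.45). SALL4, a zinc finger factor shared by epiblast and hypoblast, had 0.16 (SE 0.24), PRDM1 had 0.35 (SE 0.53) and the nuclear receptor NR5A2 had 0.06 (SE 0.41). Of the GATA and SOX F list, GATA4, GATA6 and the trophectoderm paralogs GATA2 and GATA3 were tested. GATA2 averaged 8.66 ± 2.77 CPM in the controls and 7.71 ± 1.19 CPM in the BHB pools, and GATA3 at 137.7 ± 26.6 and 135.6 ± 8.86 CPM (log2 fold change -0.02, SE 0.16). GATA3 was 0.05 with library size alone as scaling, so no direction is given for it.

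PDGF genes went both ways, with 5 of 13 positive, PDGFRA included (median -0.05). The ligand gene PDGFA, named here after its values were seen because its product binds PDGFRA, averaged 28.4 ± 4.69 CPM in the controls and 27.3 ± 4.05 CPM in the BHB pools (log2 fold change -0.06, SE 0.20). PDGFC, another ligand of the receptor, was at 2.17 ± 0.81 and 0.85 ± 0.60 CPM (-1.35, SE 0.62), lower in 3 of 3 pairs. PLAT, the plasminogen activator that can process PDGFC, had -1.34 (SE 0.77), with -0.23 without control library 3, and in pair 2 the BHB library was the higher one. The adaptor GRB2, which links receptors to RAS, averaged 63.0 ± 24.1 CPM in the controls and 93.3 ± 11.3 CPM in the BHB pools (0.56, SE 0.25), higher in 3 of 3 pairs. PIK3R1, the regulatory subunit of PI3 kinase, had a narrow spread, with controls at 59.8 to 61.1 CPM and BHB libraries at 53.1 to 55.0 CPM (-0.17, SE 0.13). None of the genes of this paragraph had an edgeR adjusted p below 0.999 without pairing. Within pairs the edgeR adjusted p ran from 0.345 for GRB2 (0.62, SE 0.16) to 0.958 for PDGFA (-0.06, SE 0.16). Without pair 2, blocked edgeR called 16 of 12719 genes, PLAT among them (log2 fold change -2.56, adjusted p = 0.0096). With all pairs it did not call PLAT (adjusted p = 0.613).

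FGF signalling genes were split evenly, 8 positive and 8 negative (median 0.00). The smallest p-values belonged to MAPK3, the kinase ERK1, which averaged 4.29 ± 0.84 CPM in the controls and 2.46 ± 0.79 CPM in the BHB pools (log2 fold change -0.79, SE 0.39), and to the feedback inhibitors SPRY1 (-0.96, SE 0.50) and SPRY2 (-0.59, SE 0.43). ETV5, a transcription factor induced by FGF, had 0.72 (SE 0.61). MAPK3, SPRY1 and SPRY2 were lower in 3 of 3 pairs and ETV5 was higher in 2 of 3. None passed, with an edgeR adjusted p of 0.999 for each without pairing. Within pairs the edgeR adjusted p ran from 0.564 for SPRY2 (-0.64, SE 0.25) to 0.69 for ETV5 (0.96, SE 0.53).

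Basement membrane genes had 6 of 13 positive (median -0.02). COL4A2, a type IV collagen chain, was at 5.88, 7.69 and 5.99 CPM in control libraries 1 to 3 and at 8.49, 11.9 and 9.63 CPM in BHB libraries 1 to 3. The groups did not overlap, as in 7.84% of tested genes, and the log2 fold change was 0.62 (SE 0.27, edgeR adjusted p = 0.999). Its partner chain COL4A1 had 0.16 (SE 0.18), the matrix glycoprotein SPARC 0.28 (SE 0.22) and the laminin chain LAMC1 -0.18 (SE 0.21). COL4A2, COL4A1 and SPARC were higher in 3 of 3 pairs and LAMC1 in 1 of 3. The blocked edgeR estimate was 0.28 for SPARC (SE 0.09, adjusted p = 0.503) and 0.62 for COL4A2 (SE 0.24, adjusted p = 0.564). It was 0.16 for COL4A1 (SE 0.16, adjusted p = 0.833) and -0.18 for LAMC1 (SE 0.14, adjusted p = 0.788). LAMC1 turned to 0.02 without control library 1.

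Of the endocytosis list, 2 genes were tested and both had negative fold changes (median -0.35). LRP2, the receptor megalin, was at 2049, 1840 and 1379 CPM in control libraries 1 to 3 and at 1476, 1081 and 892 CPM in BHB libraries 1 to 3. It was lower with BHB in 3 of 3 pairs, and DESeq2 within pairs called it (log2 fold change -0.63, adjusted p = 9.44e-05), while edgeR gave adjusted p = 0.999 without pairing and 0.0915 within pairs. DAB2, an adaptor of the same receptor, had -0.09 (SE 0.19) and turned to 0.04 without control library 2. LRP2 is also expressed by trophectoderm, so it is not a measure of hypoblast alone.

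Secreted products and HNF4A targets had 6 of 8 positive without pairing (median 0.13) and 5 of 8 within pairs (median 0.08). The median ran from -0.0052 to 0.329 with 1 library left out, or 1 pair left out in the blocked fit, so no direction is given for the list. RBP4, the plasma retinol carrier, averaged 1.44 ± 0.90 CPM in the controls and 3.26 ± 0.38 CPM in the BHB pools (log2 fold change 1.15, SE 0.49). Its groups did not overlap, as in 7.84% of tested genes. It rested on 8, 6 and 21 counts in the controls and on 21, 25 and 24 counts in the BHB libraries. RSPO3, a WNT agonist, had 0.62 (SE 0.35) and the fibrinogen chain FGG 0.61 (SE 0.35), and RBP4, RSPO3 and FGG were each higher in 3 of 3 pairs. MTTP, which loads lipid onto apolipoprotein B, averaged 4.10 ± 4.57 CPM in the controls and 1.33 ± 1.76 CPM in the BHB pools (-1.60, SE 1.10). It was -0.19 without control library 2, which had 70 counts against 5 and 20 in controls 1 and 3, and -3.50 without BHB library 2. Pair 2 was highest for MTTP, as for HNF4A. None passed edgeR's test, with an adjusted p of 0.999 for each without pairing and 0.457 to 0.601 within pairs.

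**Figure D3:**
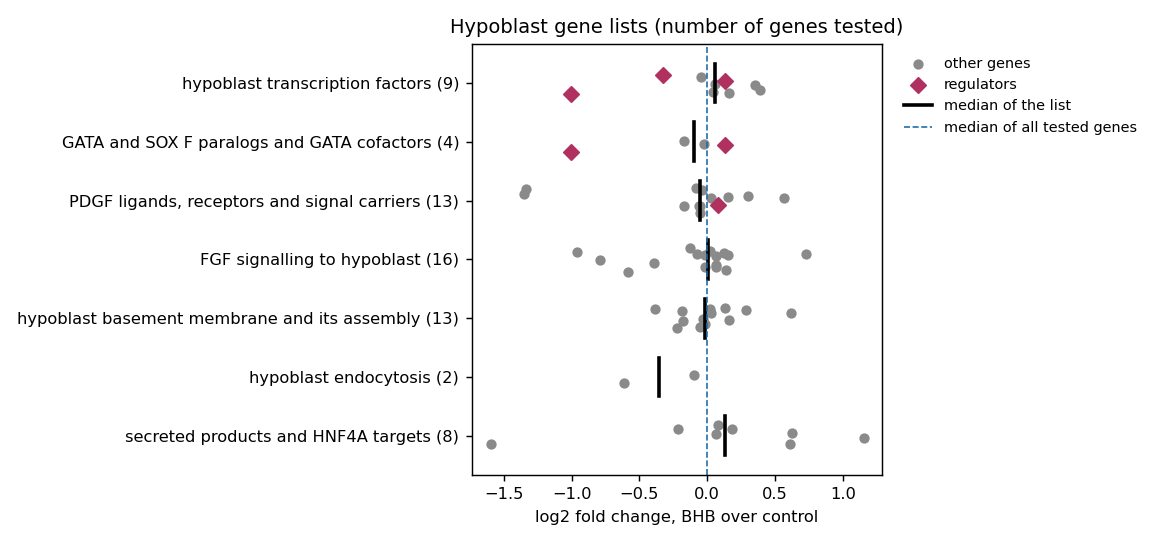
Log2 fold changes of BHB over control (horizontal axis) for the tested genes of 7 hypoblast lists, with the regulators as diamonds, the other genes as circles (shifted vertically at random), each list's median as a black bar and the median of all tested genes as a dashed line. The list medians lie between -0.10 and 0.13, except that of the 2 endocytosis genes (-0.35), and GATA4 at -1.002 is far from the other regulators.

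Between pairs, 8 of the 59 genes passed (13.6%, against 4.12% of all tested genes). They are named here after their values were seen, and the lists were chosen with earlier results of these data known. OTX2, a homeobox factor of epiblast and visceral endoderm, had the smallest adjusted p of them (edgeR adjusted p = 0.00817) and followed PDGFRA in having both libraries of pair 1 below the other 4. It averaged 62.5 CPM in pair 1 and 126 and 123 CPM in pairs 2 and 3. The matrix glycoprotein SPARC was also lowest in pair 1, at 367 CPM against 526 and 598 CPM, and so was the basement membrane linker NID1, at 46.9 CPM against 121 and 60.0 CPM. In the other direction, the laminin chain LAMA1 averaged 59.0, 39.5 and 34.0 CPM in pairs 1 to 3 and the proteoglycan AGRN 47.0, 34.1 and 22.5 CPM. APOE, an apolipoprotein, was highest in pair 1 at 32.1 CPM against 8.84 and 18.7 CPM. LRP2 was lower in pair 3 than in pair 1 by -0.65 on the log2 scale, and DAB2 by -0.41. Genes of the hypoblast lists thus differed between pairs in both directions: 3 of the 8 were lowest and 4 were highest in pair 1.

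**Figure D4:**
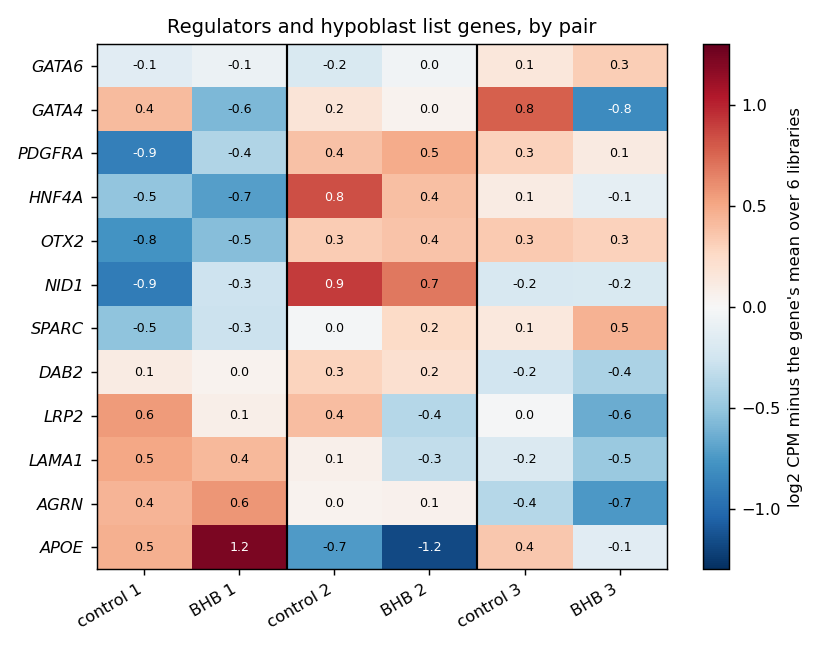
Log2 CPM of each gene minus its mean over the 6 libraries (colour and printed value) for the 4 regulators and the 8 hypoblast list genes that differed between pairs, with libraries ordered by pair and black lines between pairs. PDGFRA, HNF4A, OTX2, NID1 and SPARC are below their means in both libraries of pair 1, DAB2, LRP2, LAMA1, AGRN and APOE are above theirs, and GATA4 differs by treatment within pairs 1 and 3.

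Markers of the other lineages were read beside the regulators, and by edgeR none passed between the treatments, without pairing or within pairs. The summed level of 12 trophectoderm markers in the table, led by the keratin KRT8, ran from 12770 to 20070 CPM in control and from 9880 to 17050 CPM in BHB libraries, and was lower with BHB in each pair. KRT8 alone held 7369 to 12280 CPM of it in control and 5706 to 9804 CPM in BHB libraries. The keratins KRT8, KRT18 and KRT19 were lower with BHB in 3 of 3 pairs, while the transcription factors CDX2, TEAD4 and TFAP2C were higher in 3 of 3. BHB went in 1 direction in all 3 pairs in 30.3% of tested genes. Other transcription factors of the list were mixed: GATA3 was higher with BHB in 2 of 3 pairs, GATA2 and TFAP2A in 1 of 3. KRT8, KRT18, CDX2, TEAD4 and TFAP2A are named here after their values were seen. Across the tested trophectoderm markers 4 of 11 had a positive fold change (median -0.05), so the sum follows the keratins and not the whole list. That list too was chosen with earlier results of these data known. Of its tested markers 4 of 11 passed between pairs (36.4%, against 4.12% of all tested genes). These were KRT8, KRT18, KRT19 and PAG2. KRT19 was lowest in pair 1 and the others were highest there. KRT19 averaged 345 ± 198 CPM in the controls and 195 ± 59.5 CPM in the BHB pools (log2 fold change -0.82, SE 0.37, edgeR adjusted p = 0.999). KRT19 was -0.27 without control library 2. Within pairs 1, 2 and 3 it differed by -0.04, -1.11 and -0.98 on the log2 CPM scale. Blocked edgeR without pair 1, where that difference was smallest, called 4 of 12665 genes, KRT19 among them (-1.045, adjusted p = 0.0172). With all pairs it did not call KRT19 (adjusted p = 0.345). TFAP2C averaged 215 ± 55.0 and 278 ± 16.6 CPM (0.37, SE 0.18, edgeR adjusted p = 0.999). PAG2, a trophoblast glycoprotein of a large family whose level is uncertain, is named here after its values were seen and averaged 716 CPM in pair 1 and 242 and 207 CPM in pairs 2 and 3. For the 11 epiblast markers in the table, led by POU5F1, the sum was 1003 to 1056 CPM over the controls. With BHB it was 924 to 1108 CPM, so the groups overlapped. POU5F1, named here after its values were seen, averaged 292 ± 15.6 CPM without and 290 ± 29.2 CPM with BHB. NANOG averaged 68.8 ± 7.04 and 38.4 ± 11.1 CPM, so it is a small part of that sum. The sum is therefore not a measure of NANOG, and the epiblast share was not tested. KLF17 was at 18.5 ± 3.52 and 30.5 ± 5.44 CPM (0.72, SE 0.22, edgeR adjusted p = 0.999). The part of lineage shares in the values of the regulators was not tested.

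PDGFRA is also a gene of stromal cells. The 7 stromal markers in the table, led by COL1A2, summed to 123 to 175 CPM in control and 84.8 to 137 CPM in BHB libraries. In pair 1, where PDGFRA was lowest, they summed to 123 and 106 CPM, within the range of the other libraries. The members of that list did not share 1 order of the pairs. COL1A2 averaged 70.8, 57.9 and 51.8 CPM in pairs 1 to 3. LUM averaged 7.04, 34.9 and 25.9 CPM and COL3A1 1.88, 6.20 and 4.53 CPM, both lowest in pair 1 like PDGFRA. POSTN, THY1, COL1A1 and DCN were lowest in pair 2. In pairs 1 to 3 POSTN averaged 27.8, 25.5 and 37.6 CPM and THY1 2.14, 2.10 and 5.02 CPM. COL1A1 averaged 2.68, 2.39 and 2.99 CPM and DCN 2.35, 1.51 and 2.30 CPM. LUM, COL1A2, THY1, COL1A1 and DCN are named here after their values were seen. None of the 7 passed between pairs after adjustment (edgeR adjusted p = 0.0669 for LUM and 0.107 for COL3A1). The part of stromal cells in the level of PDGFRA was not tested, and PDGFRB, TWIST1 and PRRX1 of that list were not analysed here.

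The regulators had different profiles over the libraries. The root mean square distance between centred log2 CPM profiles was smallest for PDGFRA and HNF4A (0.30) and largest for GATA4 and PDGFRA (0.71), with GATA6 at 0.47 from PDGFRA, 0.57 from HNF4A and 0.63 from GATA4. For each regulator, the nearest 3 genes by that distance were taken from all other tested genes with a symbol and a mean log2 CPM of at least 2. With 6 libraries and so many candidates, close profiles occur for any gene, and the names are a description. Nearest to GATA6 were MAX, the partner of MYC (0.03), the histone methyltransferase gene NSD2 (0.04) and LRRCC1 (0.04). Nearest to GATA4 were the cathepsin CTSK (0.15), SRXN1 (0.17) and PPP1R3E (0.21), nearest to PDGFRA were WDR90, SLC29A1 and TBC1D4 (0.10 each), and nearest to HNF4A were KYAT1 (0.12), the sterol transporter gene ABCG5 (0.13) and the epithelial factor GRHL3 (0.13). The median distance over the candidates was 0.29 for GATA6, 0.59 for GATA4, 0.54 for PDGFRA and 0.57 for HNF4A.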

How the data were processed

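The authors deposited whole-number counts per gene for 6 libraries and a table of their own comparison. Per the labels' protocols, polyadenylated RNA was made into stranded libraries and sequenced in 1 lane. The tools named in the submitters' processing notes are STAR, featureCounts and DESeq2. Versions, genome build, annotation and strand setting: not given in the sources used here, so no coordinates are printed. The authors' deposited table gives per gene a mean signal (linear), the log2 fold change of control over BHB and its error, a test score, and raw and adjusted p-values.

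Counts were tested with edgeR 4.0.16 (R 4.3.3): TMM factors, filterByExpr (12732 genes kept, 94 removed), quasi-likelihood F test, no covariate, threshold 0.05. DESeq2 1.42.0 and limma 3.58.1 (voom) were alternatives. The edgeR, DESeq2 and voom fits were run on simulated data. Only genes with higher counts than GATA4 were changed there, so sparse genes were not covered. Log2 CPM used a prior count of 2. The 95% intervals come from the quasi-likelihood fit. Depth was 6440732 to 8176648 counts per library.

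The pairing was recovered by refits: DESeq2's likelihood ratio test of pair and treatment against neither matched the p-values that the authors deposited to 1e-06 for 99.98% of genes when libraries with the same number were paired, and in 0 to 0.398% under the other 5 pairings. Over genes, both libraries of a pair deviated together from the group means, with correlations of 0.46, 0.32 and 0.33.

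Regulators and gene lists were chosen with earlier results of these data known, and listed genes were matched by exact symbol. A gene of the endocytosis list is not reported here and is left out of the list counts. Named genes are the regulators, up to 4 genes of each hypoblast list and up to 2 of each marker list (epiblast, trophectoderm, cumulus and granulosa, stromal, blood) with the smallest unadjusted p, the nearest profiles, and NANOG; others are said to have been chosen after their values were seen.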

Additional observations from a re-analysis of the deposited data

How the results depend on the processing

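With DESeq2 the count of genes called between BHB and control was 6 without and 35 with the replicate block, where edgeR called 0 both ways. The replicate block in DESeq2 called 1 gene of the endocytosis list (LRP2), made the log2 fold change of NR5A2 -0.0145 and called no regulator. It gave no adjusted p to GATA4, nor to HHEX, PRDM1, PDGFC, MAPK3, SPRY1, RBP4, MTTP and CD68. Under limma-voom NR5A2 was -0.047, and with library size alone GATA3 was 0.0501. With 1 library left out, or 1 pair left out in the blocked fit, edgeR called 0 to 16 genes, of which 0 to 1 were in the endocytosis list and 0 to 1 in the PDGF list. Over the same fits the log2 fold change ran from -0.0069 to 0.247 for GATA6, from -1.485 to -0.613 for GATA4, from -0.228 to 0.302 for PDGFRA, from -0.638 to 0.0966 for HNF4A, from -0.131 to 0.771 for PRDM1, from -0.209 to 0.372 for NR5A2, from -0.402 to 0.067 for GATA2, from -0.112 to 0.201 for GATA3, from -0.321 to 0.0244 for LAMC1, from -0.230 to 0.0633 for DAB2 and from -0.00063 to 0.421 for ALAS2. Without a pair, 63 to 737 genes differed between pairs, with adjusted p = 0.00404 to 0.489 for PDGFRA and 0.0135 to 0.253 for HNF4A in edgeR. Leaving out 1 library leaves the other of its pair in the fit. The cause of each shift was not tested. The planned filter of 1 CPM in 3 libraries kept every gene, and levels per length were not computed. GATA4, with 6 to 27 counts per library, is limited by depth. So are other named genes, among them PDGFC (2 to 26 counts), SPRY1 (6 to 31), MAPK3 (12 to 38) and RBP4 (6 to 25).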

Other observations

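Markers of cells that a pool could carry besides the embryo were read from 3 lists. Of 12 cumulus and granulosa markers, 3 were measured, and they summed to 29.6 to 37.5 CPM in control and 28.2 to 35.3 CPM in BHB libraries. FSHR, the receptor of follicle-stimulating hormone, averaged 16.4 ± 3.43 CPM in the controls and 13.5 ± 1.24 CPM in the BHB pools, and CYP19A1, the aromatase, at 7.28 ± 0.75 and 9.03 ± 1.54 CPM. The other 9 markers of that list were not analysed here. Of 10 blood cell markers, 2 were measured, the lysosomal protein gene CD68 (1.90 ± 0.51 and 2.61 ± 0.17 CPM) and ALAS2, an enzyme of haem synthesis (4.91 ± 1.54 and 5.76 ± 1.37 CPM). Of 10 stromal markers, 7 were measured, and they summed to 84.8 to 175 CPM over the 6 libraries. Among them POSTN, a matrix protein, averaged 42.0 ± 17.5 CPM in the controls and 18.6 ± 8.91 CPM in the BHB pools, and the collagen gene COL3A1 at 2.69 ± 1.55 and 5.72 ± 2.93 CPM. By edgeR none of these genes passed between the treatments (adjusted p = 0.999 for each without pairing). Within pairs 1, 2 and 3 POSTN differed by -2.12, 0.28 and -1.69 on the log2 CPM scale, so pair 2 went the other way. Blocked edgeR without pair 2 called 16 of 12719 genes, POSTN among them (log2 fold change -1.912, adjusted p = 0.00108). With all pairs it did not call POSTN (adjusted p = 0.46).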
